A study of Mus musculus with 4 samples.

Results

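Expression of 8 genes of transforming growth factor β (TGF-β) signalling was examined in lung CD11b+Ly6g+ myeloid-derived suppressor cells (MDSCs) of mice carrying a pre-metastatic niche (PMN). The genes were taken by symbol from the 54532 genes in the count file. They were the ligands Tgfb1, Tgfb2 and Tgfb3, the receptors Tgfbr1 and Tgfbr2, the target Tgfbi, and Smad7 and Skil, which are both targets and inhibitors of the pathway. Each symbol matched 1 row, and all 8 were among the 16369 genes that reached 10 counts in some library, so none was lost to this filter on low counts.

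The mice of all 4 groups were C57BL/6, 6 to 8 weeks old. All received MCM, which is culture medium taken from B16F10 mouse melanoma cells, injected into the peritoneum at 300 µl per mouse for 10 days, and B16F10 cells into the tail vein on day 7. Ctrl mice were given no peptide, and the others received TP5, sFD17 or FR17 under the skin at 40 μM/kg/day from day 3, with lungs taken on day 10. TP5 was free thymopentin. FR17 carried TP5 on a self-assembling backbone through a linker that the protease MMP2 cuts, and sFD17 was the same construct with the TP5 residues in scrambled order. Every group included MCM and melanoma cells, and no group of healthy mice was analysed here.

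Each group was 1 library made from the sorted cells of 10 to 12 mice, with totals of 15543071 to 19638228 counts. With no replicate library, the spread between mice could not be measured, and differences are described by their size and not by a test across mice. A test on a pair of libraries, run as an alternative, compares those libraries and not the conditions. Intervals are 95% counting intervals (exact Poisson for a level, exact binomial for a ratio of counts from a pair of libraries). They cover counting error only. Levels are given as CPM, a gene's count relative to the size of its library, scaled by TMM, a method that sets the bulk of genes equal between libraries, and levels of different genes are compared as RPKM, which divides CPM by gene length. Marker lists are given as summed CPM, not corrected for length, and a gene that leads a list is one that adds most to this sum over the 4 libraries. A gene is said to have risen or fallen where its log2 CPM (prior count 2) differed by at least 1, a 2-fold change.

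TGF-β is secreted bound to its own propeptide and to a latent TGF-β binding protein, and must be released before it can bind a receptor. Active ligand joins the type II receptor Tgfbr2 to the type I receptor Tgfbr1, which phosphorylates Smad2 and Smad3, and these enter the nucleus with Smad4. Smad7 blocks the type I receptor and the protein encoded by Skil (SnoN) represses Smad-driven transcription, and both are induced by the pathway they restrain. In tumour-bearing hosts TGF-β is known as a product of MDSCs that restrains lymphocytes and activates fibroblasts, and among the ligands Tgfb1 is the form typical of leukocytes.

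The ligand genes also differ in their start regions. The 250 bases before the annotated start of Tgfb1 and of Tgfb2 are shown because Tgfb1 held nearly all of the ligand RNA and Tgfb2 varied most among the 8 genes. Sequences are from RefSeq, build GRCm38.p6, in the direction of transcription, with capitals marking the motifs searched on both strands: CACGTG for an E-box, TATAAA for a TATA box and GGGCGG for a GC box. A GC box on the opposite strand reads as CCGCCC. The Tgfb1 window is chr7:25686752-25687001 (plus strand) and the Tgfb2 window is chr1:186705990-186706239 (minus strand).
Tgfb1: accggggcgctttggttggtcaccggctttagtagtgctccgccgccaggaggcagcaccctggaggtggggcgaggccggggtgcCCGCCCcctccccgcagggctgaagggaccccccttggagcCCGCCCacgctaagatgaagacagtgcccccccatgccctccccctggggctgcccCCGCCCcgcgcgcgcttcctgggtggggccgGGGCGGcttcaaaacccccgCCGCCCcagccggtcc
Tgfb2: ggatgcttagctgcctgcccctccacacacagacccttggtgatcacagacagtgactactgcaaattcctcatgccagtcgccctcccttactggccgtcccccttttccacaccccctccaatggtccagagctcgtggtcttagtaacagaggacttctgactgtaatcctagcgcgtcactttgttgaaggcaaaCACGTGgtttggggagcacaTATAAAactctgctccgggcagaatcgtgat

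The Tgfb1 window held 75.2% G and C and 5 GC boxes, which lay 164, 123, 67, 36 and 16 bases before the start, with no E-box or TATA box. The Tgfb2 window held 53.6% G and C, 1 TATA box 31 bases before the start and 1 E-box 51 bases before it, with no GC box. Among 32851 RefSeq promoter windows of the same length, 32.7% held a GC box, 12.4% a TATA box and 6.02% an E-box, with a median of 52.4% G and C. The shorter Smad element CAGAC was found at 2 places in the Tgfb2 window and nowhere in the Tgfb1 window, against 42.2% of all windows with at least 1. Promoter entries were held for 5 of the 8 genes. A match of letters is a description of sequence and says nothing of binding in these cells.

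Tgfb2 had the widest range of the 8 genes. It fell in the TP5 and sFD17 libraries and stood closer to the control level in the FR17 library. Tgfb2 (ENSMUSG00000039239, chromosome 1 from 186622792 to 186705989, minus strand) had 190 counts in Ctrl, 39 in TP5, 11 in sFD17 and 189 in FR17. Its level was 11.2 CPM in Ctrl (interval 9.71 to 12.97), 2.22 in TP5 (1.58 to 3.04), 0.833 in sFD17 (0.416 to 1.49) and 8.23 in FR17 (7.10 to 9.49). With TMM scaling no neighbouring pair in this order of levels had overlapping intervals, with Ctrl highest, followed by FR17, TP5 and sFD17. The margin between Ctrl and FR17 depended on the scaling.

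Against Ctrl, Tgfb2 was 5.06-fold lower in TP5 (interval 3.57 to 7.34, log2 fold change -2.28). It was 13.5-fold lower in sFD17 (7.37 to 27.5, log2 fold change -3.58). In FR17 it was 1.37-fold lower (1.11 to 1.68, log2 fold change -0.44), short of the 2-fold rule. That log2 fold change was -0.20 with library size alone and -0.26 with scaling to neutrophil marker counts. Among all 16369 genes, 32 had a lower log2 fold change than Tgfb2 in TP5 and 8 had a lower one in sFD17, whereas 2776 did in FR17. The 3 comparisons share the Ctrl library. They are therefore not independent of each other.

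The peptides, given at 1 dose and on 1 schedule, also differed directly in Tgfb2. FR17 and sFD17 share the assembling backbone and linker and differ in the order of the TP5 residues, and Tgfb2 was 9.88-fold higher in FR17 than in sFD17 (interval 5.40 to 20.1). FR17 and TP5 share the thymopentin residues and differ in the assembling part, and Tgfb2 was 3.70-fold higher in FR17 than in TP5 (2.61 to 5.37). Free TP5 exceeded sFD17 by 2.67-fold (1.34 to 5.77).

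**Figure D1:**
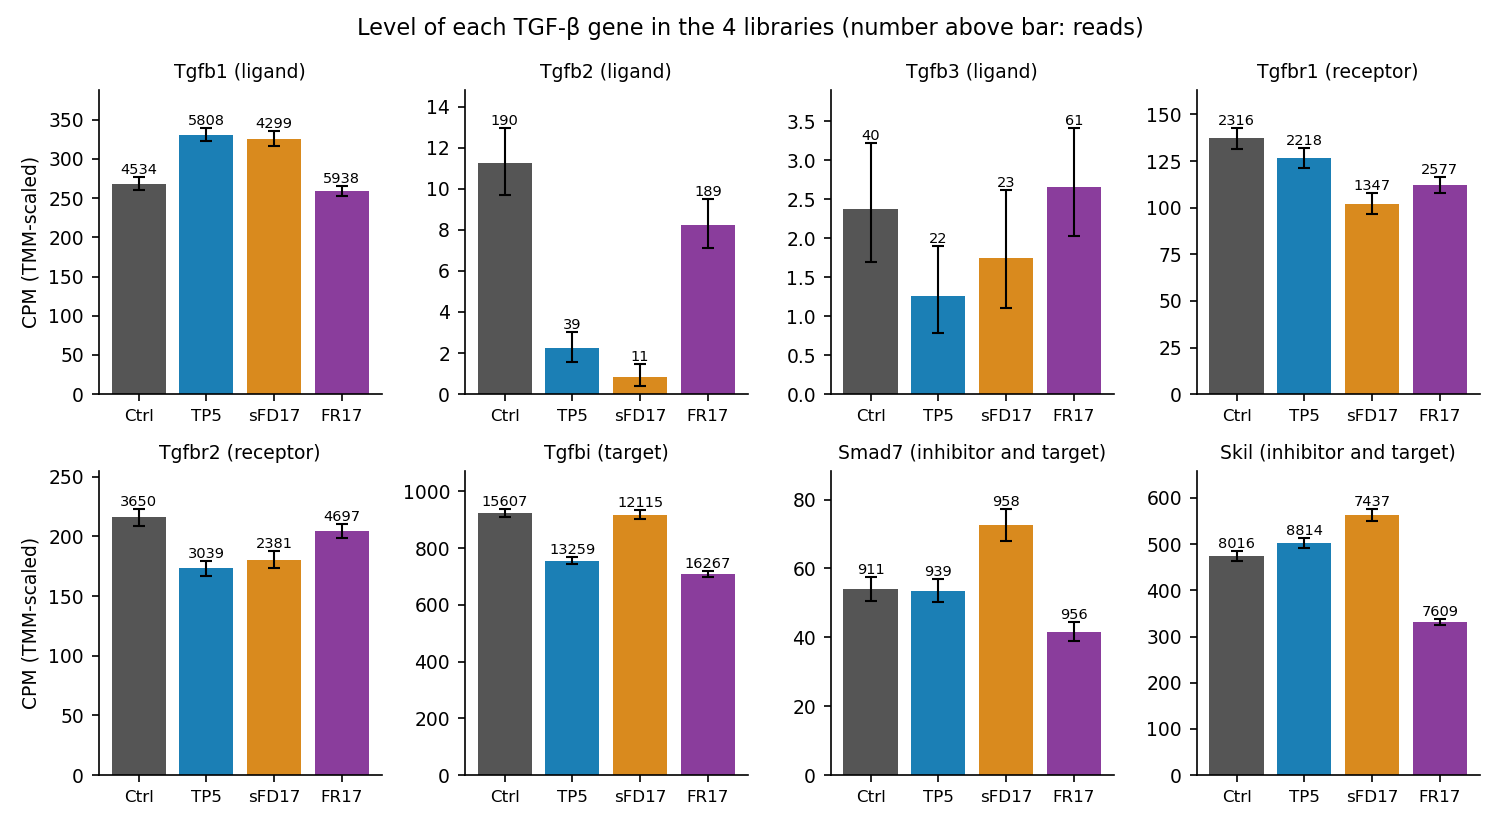
Level of each of the 8 TGF-β genes in CPM (vertical axis, from 0, a scale of its own for each gene) in the Ctrl, TP5, sFD17 and FR17 libraries, 1 library a group. Lines are 95% Poisson counting intervals and the number above each bar is the reads counted. Tgfb2 drops from 190 reads in Ctrl to 39 in TP5 and 11 in sFD17 and stands at 189 in FR17, while the bars of the other genes differ by at most 2.12-fold.

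Tgfb1, the ligand gene with by far the highest level, did not pass the 2-fold rule in any comparison. Tgfb1 (ENSMUSG00000002603, chromosome 7 from 25687002 to 25705077, plus strand) had 4534 counts in Ctrl, 5808 in TP5, 4299 in sFD17 and 5938 in FR17. These were 268 CPM in Ctrl, 331 in TP5, 326 in sFD17 and 259 in FR17. With TMM scaling TP5 and sFD17 stood above Ctrl and FR17, and within each of these pairs the intervals overlapped. The ratio to Ctrl was 1.23 in TP5 (interval 1.19 to 1.28). It was 1.21 in sFD17 (1.16 to 1.27), a direction that was turned by scaling to neutrophil marker counts (log2 fold change -0.09). In FR17 the ratio was 0.964 (0.927 to 1.00), and it was above 1 when library size alone was used (log2 fold change 0.19).

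Tgfb3, the ligand gene with the lowest level in 3 of the 4 libraries, was counted rarely, and neighbours in its order of levels could not be separated. Tgfb3 (ENSMUSG00000021253, chromosome 12 from 86056745 to 86079041, minus strand) had 40 counts in Ctrl, 22 in TP5, 23 in sFD17 and 61 in FR17. Its level ran from 1.25 CPM in TP5 to 2.66 in FR17, and every neighbouring pair in this order had overlapping intervals. The ratio to Ctrl was 0.530 in TP5 (0.300 to 0.913), 0.736 in sFD17 (0.421 to 1.26) and 1.12 in FR17 (0.741 to 1.72). Tgfb3 was 2.12-fold higher in FR17 than in TP5 (1.28 to 3.62), which passed the 2-fold rule with a log2 fold change of 1.02.

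Per length, the ligand RNA was almost entirely Tgfb1. Tgfb1 made up 95.3% of the summed RPKM of the 3 ligand genes in Ctrl, 98.9% in TP5, 99.0% in sFD17, with 95.9% in FR17. The share of Tgfb2 was 3.48% in Ctrl, 0.578% in TP5, 0.221% in sFD17 and 2.66% in FR17. Tgfb2 stood above Tgfb3 in Ctrl, at 1.94 against 0.700 RPKM, and below it in sFD17, at 0.144 against 0.515 RPKM. The sum of the 3 ligand genes ranged only from 53.5 RPKM in FR17 to 66.4 RPKM in TP5. The Tgfb2 change therefore moved the total ligand RNA little. Among all 16369 genes, Tgfb1 stood above 94.3 to 95.2% of genes by RPKM in the 4 libraries, and Tgfb2 above 44.8% in Ctrl but 7.50% in sFD17.

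Both receptor genes were well above the filter in every library and neither changed 2-fold. Tgfbr1 (ENSMUSG00000007613, chromosome 4 from 47353222 to 47414931, plus strand), which encodes the type I receptor kinase, had 2316 counts in Ctrl, 2218 in TP5, 1347 in sFD17 and 2577 in FR17. These were 137, 126, 102 and 112 CPM respectively. The sFD17 library was lowest, at 0.744 of the control level (0.696 to 0.796), and the intervals of Ctrl and TP5 overlapped.

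Tgfbr2 (ENSMUSG00000032440, chromosome 9 from 116084293 to 116175360, minus strand), which encodes the ligand-binding type II receptor, had 3650 counts in Ctrl, 3039 in TP5, 2381 in sFD17 and 4697 in FR17. Its level was 216 CPM in Ctrl, 173 in TP5, 180 in sFD17 and 205 in FR17. With TMM scaling Ctrl and FR17 formed an upper pair and TP5 and sFD17 a lower pair, with overlapping intervals inside each pair. The log2 fold change of sFD17 against TP5 was 0.06 with TMM, -0.21 with library size alone and -0.20 with neutrophil scaling. The FR17 ratio to Ctrl of 0.947 (0.907 to 0.989) changed sides of 1 under library size alone and under neutrophil scaling. For each 100 Tgfbr2 counts there were 63.5 Tgfbr1 counts in Ctrl (60.2 to 66.9), 73.0 in TP5 (69.1 to 77.1), 56.6 in sFD17 (52.9 to 60.5) and 54.9 in FR17 (52.3 to 57.6). This ratio does not depend on the scaling of a library. TP5 was above Ctrl in it, and the intervals of sFD17 and FR17 overlapped each other.

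Tgfbi, a secreted matrix protein named for its induction by TGF-β, had the highest level of the 8 genes in every library. Tgfbi (ENSMUSG00000035493, chromosome 13 from 56609523 to 56639562, plus strand) had 15607 counts in Ctrl, 13259 in TP5, 12115 in sFD17 and 16267 in FR17. Its level was 924 CPM in Ctrl, 756 in TP5, 918 in sFD17 and 709 in FR17. With TMM scaling Ctrl and sFD17 could not be separated, with a ratio of 0.994 (0.970 to 1.02), and TP5 and FR17 stood lower, at 0.818 (0.799 to 0.837) and 0.767 (0.750 to 0.784) of Ctrl. In sFD17 the log2 fold change against Ctrl was -0.22 with library size alone and -0.38 with neutrophil scaling, and under both of these FR17 stood above sFD17. The value in FR17 remained below Ctrl under every scaling run, with log2 fold changes of -0.39 to -0.14.

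Skil and Smad7, the feedback inhibitors, were both highest in sFD17 and lowest in FR17 with TMM scaling, though under library size alone or neutrophil scaling Skil was not highest in sFD17. Skil (ENSMUSG00000027660, chromosome 3 from 31095058 to 31122577, plus strand) had 8016 counts in Ctrl, 8814 in TP5, 7437 in sFD17 and 7609 in FR17. Its level was 475 CPM in Ctrl, 502 in TP5, 564 in sFD17 and 331 CPM in FR17, and none of these intervals overlapped. The ratio to Ctrl was 0.698 in FR17 (0.677 to 0.721) and 1.19 in sFD17 (1.15 to 1.23), the latter turned to a log2 fold change of -0.12 by neutrophil scaling.

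Smad7 (ENSMUSG00000025880, chromosome 18, plus strand) had 911 counts in Ctrl, 939 in TP5, 958 in sFD17 and 956 in FR17. Its level was 53.9 CPM in Ctrl, 53.5 in TP5, 72.6 in sFD17, against 41.6 in FR17. The near-equal counts came from libraries of unequal size, and after scaling only Ctrl and TP5 had overlapping intervals. The ratio to Ctrl was 1.35 in sFD17 (1.23 to 1.48) and 0.772 in FR17 (0.704 to 0.846). On the log2 scale the value in sFD17 was 0.43 with TMM, 0.21 with library size alone and 0.06 with neutrophil scaling. In FR17 it was -0.37, -0.13 and -0.18 in the same order.

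Between the assembling peptides, Skil was 1.70-fold lower in FR17 than in sFD17 (1.65 to 1.76) and Smad7 was 1.74-fold lower (1.59 to 1.91). Neither difference reached 2-fold, and both shrank under other scalings. The log2 fold change of Skil was -0.77 with TMM, -0.30 with library size alone and -0.20 with neutrophil scaling. That of Smad7 was -0.80, -0.34 and -0.24 in the same order. For each 100 Skil counts there were 11.4 Smad7 counts in Ctrl (10.6 to 12.2), 10.7 in TP5 (9.95 to 11.4), 12.9 in sFD17 (12.0 to 13.8) and 12.6 in FR17 (11.7 to 13.4). The ratio of these inhibitors ranged less widely than either level did with TMM scaling, and sFD17 and FR17 had overlapping intervals in it.

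**Figure D2:**
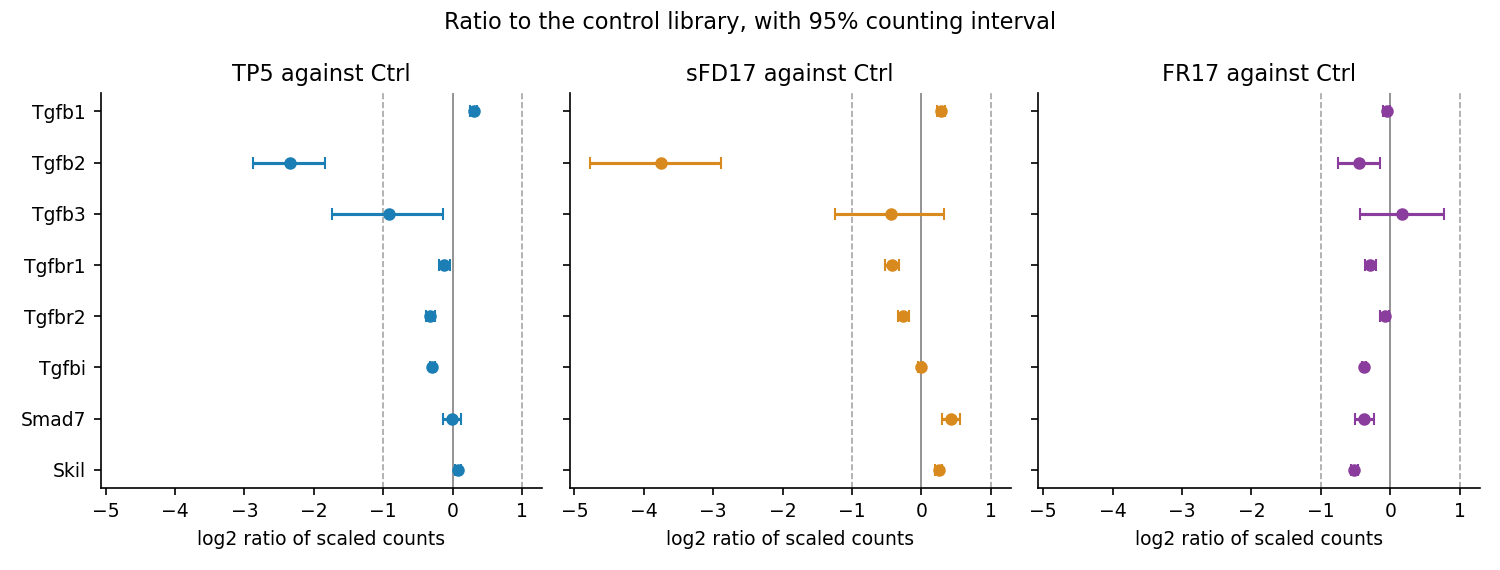
Ratio of each gene's scaled counts to the Ctrl library (horizontal axis, log2, 0 is no difference, dashed lines mark 2-fold) in TP5, sFD17 and FR17, 1 panel each. Points are ratios of 1 library to 1 library and lines are 95% counting intervals, without the spread between mice. Tgfb2 alone lies beyond the dashed lines, in the TP5 and sFD17 panels, and Skil is the lowest point of the FR17 panel.

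The sizes of these differences depended on how libraries were scaled. TMM factors ran from 0.849 in sFD17 to 1.17 in FR17, and with library size alone the median gene lay at a log2 fold change of 0.05 in TP5, -0.23 in sFD17 and 0.26 in FR17, against 0.00, -0.03 and 0.02 with TMM. A scaling moves all genes of a library together, so the distance of a gene from the median gene barely depends on the choice, by construction. With TMM this distance was -0.54 for Skil in FR17 and 0.27 in sFD17, and for Smad7 it was -0.40 in FR17 and 0.45 in sFD17. Scaling to the summed counts of 15 neutrophil markers turned the direction against Ctrl of Skil in TP5, of Tgfb1 and Skil in sFD17 and of Tgfb1 and Tgfbr2 in FR17, but not of Tgfb2 in any of the 3 peptide libraries. In FR17, Skil, Smad7, Tgfbi and Tgfbr1 stayed below Ctrl under all 4 scalings.

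**Figure D3:**
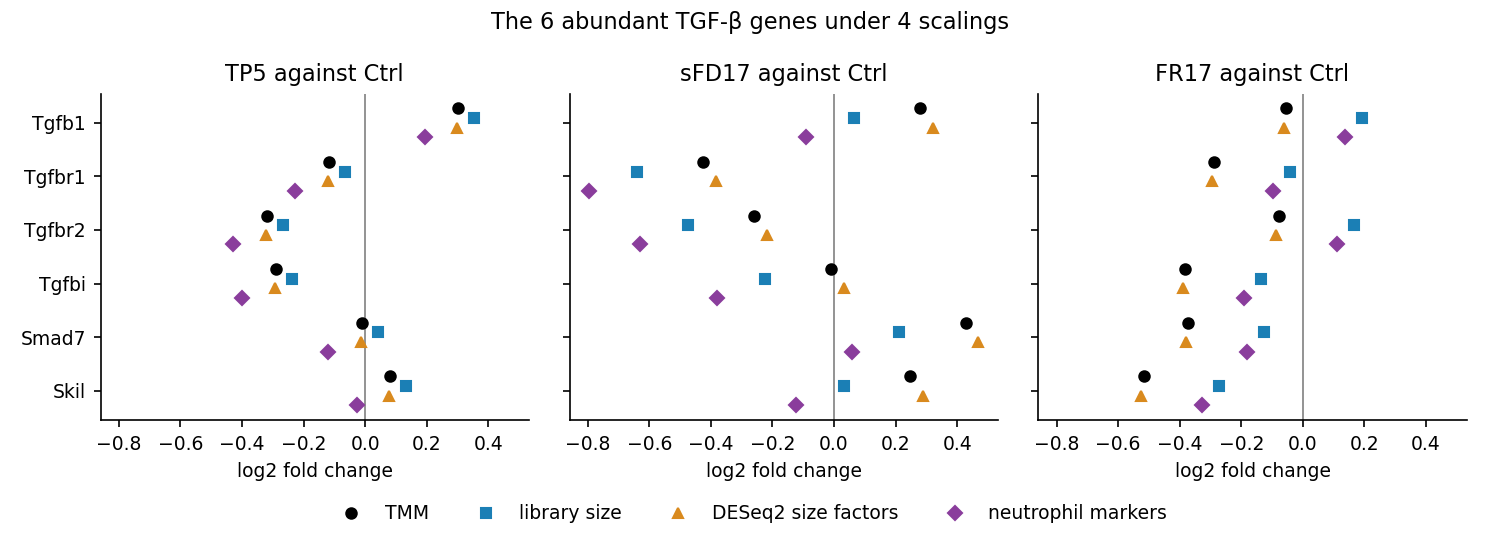
Log2 fold change against Ctrl (horizontal axis) of the 6 TGF-β genes other than Tgfb2 and Tgfb3 under 4 ways of scaling the libraries, marked by symbol shape. In the FR17 panel Tgfb1 and Tgfbr2 fall on both sides of 0, while Skil stays between -0.53 and -0.27.

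Counted by the 2-fold rule, 1 of the 8 genes (Tgfb2) fell in TP5, where 8.18% of all genes tested passed it, 3.2% higher and 4.99% lower. The same gene was the 1 that fell in sFD17, where 11.8% of all genes passed, 5.32% higher and 6.47% lower. None of the 8 passed in FR17, where 7.5% did, 3.92% higher and 3.58% lower. In FR17 against TP5, 2 of the 8 passed (Tgfb2 and Tgfb3, both higher in FR17) beside 9.92% of all genes. In sFD17 against TP5, 1 passed (Tgfb2, lower in sFD17) beside 12.4%, and in FR17 against sFD17, 1 passed (Tgfb2, higher in FR17) beside 22.1%. With only 8 genes, counts of 1 or 2 calls are too few to weigh against these backgrounds and are no result about the group as a whole. The median log2 fold change of the 8 genes was -0.20 in TP5, -0.33 in FR17 and -0.13 in sFD17.

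The study used a negative binomial test for a pair of libraries, and edgeR's exact test with a dispersion taken over the 4 libraries as if they were 1 group was run as an alternative. At an unadjusted p under 0.05 it called Tgfb2 in TP5 against Ctrl, where 1.98% of all genes were called, and in sFD17 against Ctrl, where 4.83% were. It called none of the 8 in FR17 against Ctrl, with 1.88% of all genes called. It called Tgfb2 in FR17 against TP5 (3.67% of all genes) and in FR17 against sFD17 (12.7%), but none of the 8 in sFD17 against TP5 (4.64%).

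Level per length kept nearly the same order in every library. By RPKM the order in Ctrl, TP5 and FR17 was Tgfbi, Tgfb1, Skil, Tgfbr2, Tgfbr1, Smad7, Tgfb2 and Tgfb3. In sFD17 Smad7 (16.1 RPKM) stood just above Tgfbr1 (15.6 RPKM), and Tgfb3 above Tgfb2. In Ctrl the levels ran from 245 RPKM for Tgfbi to 0.700 RPKM for Tgfb3.

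The genes whose profile over the 4 libraries was most like that of Tgfb2 were Prg4, Fcna, Cd5l, Mlxipl and Pla2g2d. Likeness was the root mean square difference of centred log2 CPM over 4 libraries, among 11988 genes with at least 50 counts in 1 of them, and ran from 0.12 for Prg4 to 0.30 for Pla2g2d. Prg4, which encodes the lubricating proteoglycan lubricin, had 3226 counts in Ctrl, 550 in TP5, 177 in sFD17 and 2764 counts in FR17. For each 100 Prg4 counts there were 5.89 Tgfb2 counts in Ctrl (5.06 to 6.82), 7.09 in TP5 (4.99 to 9.82), 6.21 in sFD17 (3.05 to 11.4) and 6.84 in FR17 (5.87 to 7.93). Prg4 was chosen as the nearest of all profiles, so a near-constant ratio follows from that choice and is no further finding. Cd5l, a secreted protein of tissue macrophages, had 748, 232, 68 and 799 counts in the same order of libraries. Only 4 points enter this measure. A like profile is a description of these libraries.

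Tgfb3 was searched in the same way. Its nearest profiles were Cxcl12, Rasgef1a, Enpp2, Cyp1a1 and Mrpl16, with differences of 0.03 to 0.06. Cxcl12, a chemokine of stromal cells, had 190 counts in Ctrl, 107 in TP5, 112 in sFD17 and 274 counts in FR17. The other 6 genes ranged by less than 2-fold and were not searched.

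The sort marker genes were present in every library, with Itgam (CD11b) at 302 to 433 CPM and Ly6g at 73.1 to 111 CPM. The summed level of 15 neutrophil markers, led by S100a9 and S100a8, was 36089 CPM in Ctrl, 38934 in TP5, 46664 in sFD17 and 31628 in FR17. With TMM it was highest and lowest in the same libraries as Skil and Smad7, but under library size alone it was highest in TP5 and lowest in Ctrl. In sFD17 14 of the 15 markers were above Ctrl, while in FR17 5 were above and 10 below, with Camp at a log2 fold change of 0.53 and Csf3r at -1.04. The part of these markers in the levels of Skil and Smad7 was not tested. After scaling to these markers the log2 fold change against Ctrl in FR17 was -0.33 for Skil and -0.18 for Smad7.

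Markers of macrophages were, like Tgfb2, lower in TP5 and lowest in sFD17. The 16 markers of serosal macrophages, the large macrophages of the peritoneal and pleural cavities, summed to 1949 CPM in Ctrl, 1176 in TP5, 846 in sFD17 and 1397 in FR17, led by Fn1 and F5. Fn1 alone was 1020 CPM of this sum in Ctrl and 380 in sFD17. Of these 16 genes, 8 fell at least 2-fold in TP5, 9 in sFD17 and none in FR17, and none was at 0 counts in any library. The list includes Prg4 and Gata6, the factor that defines these macrophages, which had 57 counts in Ctrl, 25 in TP5, 12 in sFD17 and 69 counts in FR17.

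The 14 markers of resident tissue macrophages, led by Apoe and C1qa, summed to 7066 CPM in Ctrl, 4429 in TP5, 2661 in sFD17 and 8291 in FR17, with 6 genes falling in TP5, 11 in sFD17 and none in FR17. Apoe alone was 3649 CPM of this sum in Ctrl and 1465 in sFD17. The 14 alveolar macrophage markers, led by Chil3 and Mrc1, summed to 3993, 3656, 1380 and 5574 CPM in the same order, and 2 fell in TP5, 10 in sFD17 and none in FR17. No gene of either list was at 0 counts. Both sums were above Ctrl in FR17, where Tgfb2 was below it. Mesothelial markers, led by Krt19 and Msln, summed to only 46.2, 29.6, 12.3 and 75.9 CPM, with 1 of 8 at 0 in Ctrl and 1 in TP5. Krt19 made up most of this sum, at 41.0 CPM in Ctrl and 8.33 CPM in sFD17. Of the 7 mesothelial markers tested, 3 fell and 1 rose in TP5, 3 fell and 1 rose in sFD17, and 2 rose in FR17. Their median log2 fold change was -0.88 in TP5 and -0.20 in sFD17. Fibroblast markers, led by Col3a1, Col1a1 and Col1a2, summed to 285, 158, 236 and 290 CPM, with none of 12 at 0, and 5 genes fell in TP5, 3 in sFD17 and none in FR17. The sum was lowest in TP5, but its genes differed. Wnt2, named after its values were seen, had 62 counts in Ctrl, 6 in TP5, 2 in sFD17 and 74 counts in FR17. In sFD17 11 of the 12 genes were below Ctrl and 1 above it, Col1a1 at a log2 fold change of 0.04. The median of the fibroblast list was -0.90 in TP5 and -0.52 in sFD17, unlike the order of Tgfb2. The sort required both CD11b and Ly6g, and Ly6g is chiefly a granulocyte antigen. The part of macrophages, fibroblasts and mesothelial cells in the Tgfb2 values was not tested. In a bulk library fewer cells of a type and less RNA per cell cannot be told apart. None of the 8 TGF-β genes is in a marker list.

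**Figure D4:**
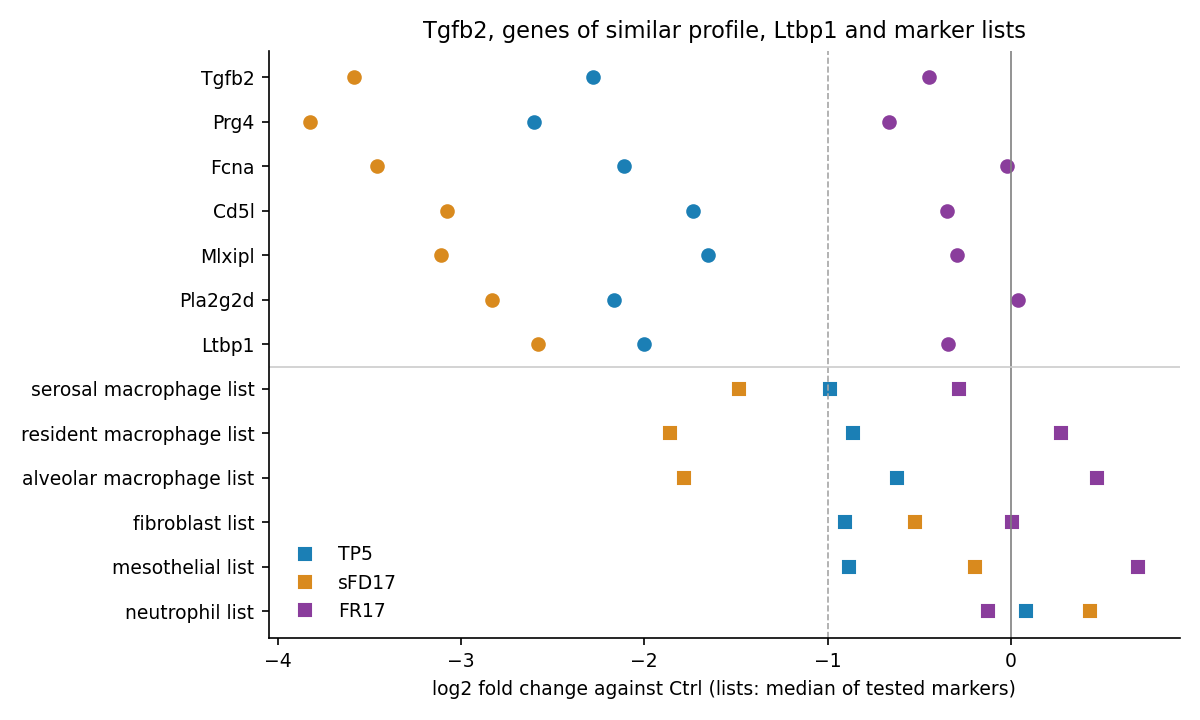
Log2 fold change against Ctrl (horizontal axis, dashed line at a 2-fold fall) in TP5, sFD17 and FR17 for Tgfb2, the 5 genes of most similar profile and Ltbp1 (circles), and the median of the tested markers of 6 cell types (squares). Tgfb2 and its neighbours in profile lie lowest in sFD17, next in TP5 and highest in FR17, and the medians of the resident and serosal macrophage lists have the same order, at -1.86 and -1.48 in sFD17.

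Other genes of the pathway were read from 6 lists holding 98 genes, of which 89 passed the filter. By the 2-fold rule 5 rose and 6 fell in TP5, 1 rose and 9 fell in sFD17, and 1 rose and 2 fell in FR17. These are 12.4%, 11.2% and 3.37% of the genes tested, beside backgrounds of 8.18%, 11.8% and 7.5%. The same backgrounds stand beside each list below. The median log2 fold change of the 89 genes was -0.08 in TP5, 0.02 in FR17 and -0.02 in sFD17. The lists and the marker lists share 8 genes.

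Among 16 tested genes of TGF-β latency and activation, 1 rose and 2 fell in TP5, 3 fell in sFD17 and none passed in FR17. Ltbp1, which tethers latent TGF-β to the matrix, had 461 counts in Ctrl, 118 in TP5, 59 in sFD17 and 493 counts in FR17, and fell by 2.00 in TP5 and by 2.58 in sFD17 on the log2 scale. Its libraries stood in the same order as those of Tgfb2. For each 100 Ltbp1 counts there were 41.2 Tgfb2 counts in Ctrl (34.6 to 48.9) and 18.6 in sFD17 (8.83 to 35.8). Dcn, a proteoglycan that binds TGF-β and also a fibroblast marker, had 509, 226, 177 and 765 counts, and fell in TP5 and sFD17. Lrrc32 (GARP), which displays latent TGF-β on the cell surface, had 86, 188, 124 and 153 counts and rose in TP5. Thbs1, an activator of latent TGF-β and the most abundant gene of this list per length, reached 594 RPKM in Ctrl, 746 in TP5, 1105 in sFD17 and 379 in FR17, with log2 fold changes of 0.33, 0.90 and -0.65 that did not pass.

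Among 13 tested genes for other ligands of the superfamily and their binding inhibitors, 2 rose and 3 fell in TP5, 1 rose and 3 fell in sFD17 and 1 rose in FR17. Bmp2, a bone morphogenetic protein, had 212 counts in Ctrl, 89 in TP5, 34 in sFD17 and 326 counts in FR17, and fell in TP5 and sFD17. Gdf15, a stress-induced member of the superfamily, had 1772, 1121, 394 and 2881 counts and fell in sFD17 by 1.81 on the log2 scale. Bmp1, which despite its name is a procollagen protease, had 72, 34, 35 and 140 counts and fell in TP5. All 3 had more counts in FR17 than in any other library.

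Of 10 other receptor genes, 1 rose in TP5 and 1 fell in FR17, both of them Bmpr1b at 13 counts or fewer. Its FR17 call (-1.03) was lost with library size alone (-0.91), with neutrophil scaling (-0.96) and with no filter (-0.99). The most abundant, Acvrl1, a type I receptor of the superfamily, stood at 23.1 RPKM in Ctrl and 26.8 to 29.2 RPKM in the peptide libraries. None of 13 Smad genes and cofactors passed in any peptide library. Smad4, the shared partner of the receptor Smads, had log2 fold changes of -0.12 in TP5, -0.41 in FR17 and 0.14 in sFD17.

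Of 13 tested inhibitors of TGF-β signalling, 1 fell in sFD17 and 1 in FR17. The first was Wwp1, a ubiquitin ligase that acts on the type I receptor, with 941 counts in Ctrl, 615 in TP5, 288 in sFD17 and 1289 counts in FR17. The second was Tgif2, a Smad corepressor, with 169, 109, 218 and 113 counts. Its log2 fold change in FR17 was -1.01, at the threshold, and the call was lost with no filter (-0.93), with 10 counts required in every library (-0.99), with library size alone (-0.77), with neutrophil scaling (-0.82) and under the exact test. Tgif1, the most abundant inhibitor, stood at 65.3 RPKM in Ctrl, 104 in sFD17 and 45.3 in FR17, the same extremes as Skil and Smad7, with log2 fold changes of 0.68 in sFD17 and -0.53 in FR17 that did not pass.

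Of 24 tested target genes, 1 rose and 1 fell in TP5, 2 fell in sFD17 and none passed in FR17. Fn1, fibronectin, which is also in the serosal macrophage list, had 17225 counts in Ctrl, 12074 in TP5, 5014 in sFD17 and 16783 counts in FR17, and fell in sFD17 by 1.42 on the log2 scale. Cyr61, a matrix-associated regulator, fell in TP5 with 319, 131, 138 and 507 counts in the same order of libraries. Itgae, the integrin chain CD103 and also a dendritic cell marker, rose in TP5 with 87, 225, 131 and 220 counts. Junb, an AP-1 factor and the most abundant target, stood at 3212 RPKM in Ctrl with log2 fold changes of -0.02 in TP5, -0.47 in FR17 and 0.37 in sFD17.

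The other called genes of these lists had 42 counts or fewer in any library and are named because they fill the counts above, after their values were seen. Inhbb had 3 counts in Ctrl, 9 in TP5, 12 in sFD17 and 8 counts in FR17, and Fst had 3, 13, 6 and 15. Bmpr1b had 5, 13, 4 and 2 counts, Itgb8 had 8, 8, 2 and 12, and Bmp4 had 32, 11, 7 and 42. Differences of this size in counts carry wide counting error.

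**Figure D5:**
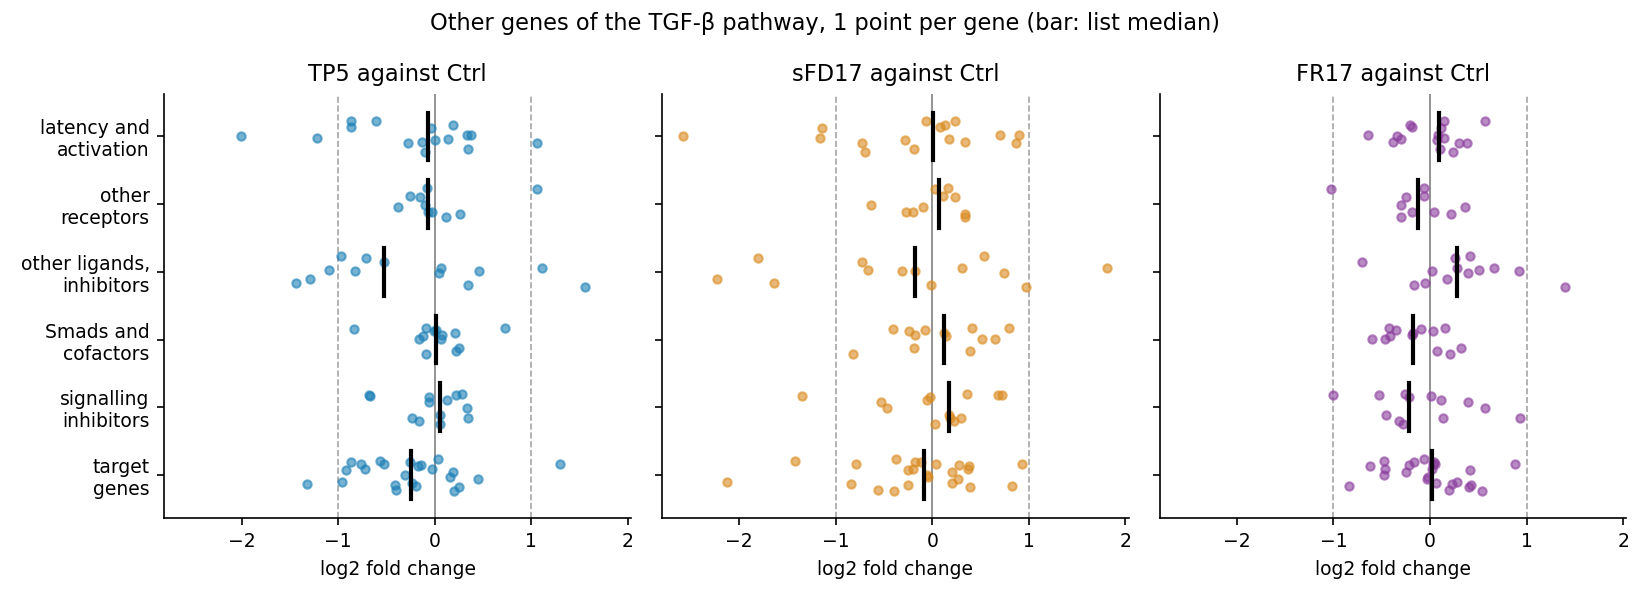
Log2 fold change against Ctrl (horizontal axis) of the 89 tested genes in 6 lists of the TGF-β pathway (rows), for TP5, sFD17 and FR17. Each point is 1 gene, black bars are list medians and dashed lines mark 2-fold. Most points lie between the dashed lines, and the lowest points in TP5 and sFD17 are Ltbp1 at -2.00 and -2.58.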

How the data were processed

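Cells were stained for CD11b and Ly6g and sorted from digested lungs, and mRNA was sequenced as 1 library per group from 10 to 12 pooled mice. The deposited file holds raw counts per gene made by the authors, with gene lengths. The submitters' processing notes name HISAT2 2.0.5, StringTie 1.3.3b, featureCounts 1.5.0-p3, edgeR 3.18.1 and build GRCm38.p6. Whether counting used strand is not given in the sources used here. By annotation Tgfb2 shares 124 exon bases with Gm29491 on the other strand (0 counts in all libraries), and Tgfb3 shares 163 with Gm37804 (at most 1 count) and 257 with Gm48008 (0 counts). Of the 54532 gene identifiers, 54495 were in GENCODE M21, 53585 with the same coordinates, and all 8 genes were among these.

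From the counts, TMM-scaled log2 CPM was computed with a prior count of 2 (edgeR 4.0.16 in R 4.3.3). RPKM used the gene lengths in the file. Genes reaching 10 counts in some library were kept, and a log2 fold change of at least 1 was a call. No test was the main result, since there were no replicates. The alternatives were library size alone, DESeq2 size factors (DESeq2 1.42.0), scaling to neutrophil marker counts, a prior count of 0.5, other filters, a 1.5-fold rule, and edgeR's exact test with a trended dispersion. Intervals and calls were tested on simulated data.

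In each of the 6 pathway lists, up to 4 called genes with at least 50 counts and the largest change were named, with the most abundant gene in Ctrl by RPKM. The 5 nearest profiles were named for a gene whose log2 CPM spanned at least 1. For marker lists the 2 most abundant genes were named. A gene that this rule selects is not reported here. Of 16 marker lists, those given are the ones set beside a result. The members, lists and rules were chosen with earlier results of these data known, and the ratios per 100 counts and the distances from the median gene, with the called FR17 pathway genes under each setting, were added after seeing the data.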

Additional observations from a re-analysis of the deposited data

How the results depend on the processing

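Tgfb2 fell in TP5 and sFD17 under every scaling, prior count, filter and call rule run. Of 48 differences of the 8 genes, 2 changed sign with DESeq2 size factors, 9 with library size alone, 11 with neutrophil scaling and 0 with a prior count of 0.5. None of these had passed the 2-fold rule. Under these alternatives 39 counts of calls moved by over 1.5 times and 81 did not. Among the 8 genes, the 1.5-fold rule called 2 in TP5 against Ctrl and 3 in FR17 against sFD17, library size alone and neutrophil scaling each called 2 in FR17 against sFD17, and the exact test called 1 in FR17 against TP5 and 0 in sFD17 against TP5. Among pathway genes in TP5, sFD17 and FR17 against Ctrl, the 1.5-fold rule called 26, 29 and 12. Requiring 10 counts in every library left 7 in TP5 and 0 in FR17, the exact test called 6 and 0 there, and neutrophil scaling called 17 in sFD17. For all genes, values follow in the order TP5, sFD17 and FR17 against Ctrl, then FR17 and sFD17 against TP5, then FR17 against sFD17. The 1.5-fold rule called 3409, 4751, 3714, 4006, 5200 and 7534, and no filter gave 3097, 4212, 2891, 3175, 3762 and 5654. Requiring 10 counts in every library gave 503, 914, 448, 714, 980 and 2316, and the exact test 324, 791, 307, 601, 760 and 2073. Neutrophil scaling called 5607 in FR17 against sFD17. The filters change both the genes tested and the TMM factors: in FR17, Bmpr1b and Fst left the test when 10 counts were required in every library, while Tgif2 stayed in it at a log2 fold change of -0.99. For the other settings the cause was not tested. No paired analysis was possible because each group is 1 library with no replicate number, and for the same reason no library could be left out of a group. Depth limits Tgfb3 and the Tgfb2 value in sFD17, which rests on 11 counts.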
